A study of Homo sapiens with 4 samples.

Results

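The DEAD and DEAH box genes encode ATP-driven enzymes that unwind short RNA duplexes or displace proteins from RNA. DEAD box proteins act locally on RNA, whereas most DEAH box proteins move along a strand from which they pull other strands or proteins away. They take part in nearly every step of RNA metabolism, from ribosome assembly and pre-mRNA splicing to mRNA export, translation and decay. Their expression was examined in HT1080, a human fibrosarcoma cell line, kept for 36 h under 21% oxygen as control or under 1% oxygen as hypoxia, both with 5% CO2 and in medium with 0.4% serum. Total RNA was taken to represent the expression level, and ER-RNA, recovered from an endoplasmic reticulum fraction made with an isolation kit, to represent transcripts located at the ER, and it is called the ER fraction here. The study asked which transcripts respond to hypoxia in each of the 2 preparations. Its methods describe a short cycloheximide pre-treatment for subcellular fractions, ER isolation included, and name none for total RNA. Effects of preparation and of this treatment cannot be told apart here. There were 4 arrays, 1 for each preparation and condition, and each carried RNA pooled from 5 experiments. Without replicate arrays the spread between experiments is unknown, no test across genes was possible and no p-value is given. In such bulk RNA, fewer cells that express a gene and less of its RNA per cell cannot be told apart.

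A gene was included where a probe set names it alone and its symbol starts with DDX or DHX followed by a digit. A few such symbols set aside by the rule are not analysed here. This gave 48 genes, represented by 50 probe sets, among 18417 genes with a probe set of their own and 33297 probe sets in all. Where a gene had several, the one whose mean across the 4 arrays was highest stood for it. DDX39B, DDX47 and DDX11 have values here only from probe sets that also name another gene, so they are given apart.

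The values are normalized signals on the log2 scale. Their median over all probe sets was 7.41 in control and 7.49 in hypoxia for total RNA, and 6.25 and 6.34 for ER-RNA, so hypoxia was compared with control within each preparation. A gene counted as expressed in a preparation if its value exceeded the 50% quantile of at least 1 of the 2 arrays. Calls required a fold over 1.4 together with a z-score over 3 in either direction, where z is the log2 difference divided by an SD modelled from the level. "Rose" and "fell" are used below for called changes only. All 6 hypoxia-responsive genes looked at as a check (ANKRD37, BNIP3, EGLN3, ENO2, NDRG1 and PDK1) rose in both preparations. The mesenchymal markers VIM, FN1 and CDH2 were expressed in both, and THY1, another such marker, in neither. Of 3 epithelial markers KRT19 was expressed in both, EPCAM and CDH1 in neither. The leukocyte markers PTPRC and CD3E and the endothelial marker CDH5 were not expressed, while CD14 and PECAM1 passed the filter in the ER fraction only.

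Hypoxia was accompanied by lower levels of most helicase transcripts. In total RNA 7 of the 48 genes (14.6%) fell and 0 rose, whereas 4.66% of all genes fell and 1.45% rose. In ER-RNA 8 of the 48 (16.7%) fell and 0 rose, against 5.32% and 0.722% of all genes. By fold alone, without the z-score, 19 helicase genes were lower and 3 higher in total RNA, where 11.6% and 3.88% of all genes were. In the ER fraction 19 were lower and 2 higher by fold alone, against 13.8% and 4.21% of all genes. The falls comprised 11 genes. DHX29, DDX10, DDX20 and DHX9 fell in both preparations, DHX33, DHX57 and DDX19A in total RNA, and DDX1, DDX21, DDX46 and DDX52 in the ER fraction. Among all genes, 495 fell in both preparations, 364 in total RNA alone and 485 in the ER fraction alone. A call in 1 preparation alone was thus common among all genes. Irrespective of calls, 36 of the 48 were lower in hypoxia in total RNA and 39 in the ER fraction. Among all genes 46.8% and 43.3% were lower. The median log2 fold change of the helicase genes was -0.32 for total RNA and -0.41 for the ER fraction, while all genes had medians of 0.026 and 0.057.

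Falls were more frequent among genes of higher signal, to which most helicase genes belong. Of the 9208 genes whose mean over the 4 arrays exceeded the median of such means, 7.67% fell in total RNA and 8.68% in the ER fraction. Above the same level lay 36 helicase genes, of which 5 (13.9%) fell in total RNA and 7 (19.4%) in the ER fraction. In total RNA 30 of these 36 were lower in hypoxia, or 83.3%, against 58.9% of the 9208 genes, and in the ER fraction 30 were lower as well, against 57.6%. With counts this small and 1 array per condition, the difference between these shares was not tested. A total of 41 helicase genes were expressed in total RNA, 41 in the ER fraction, 40 in both and 6 in neither.

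**Figure D1:**
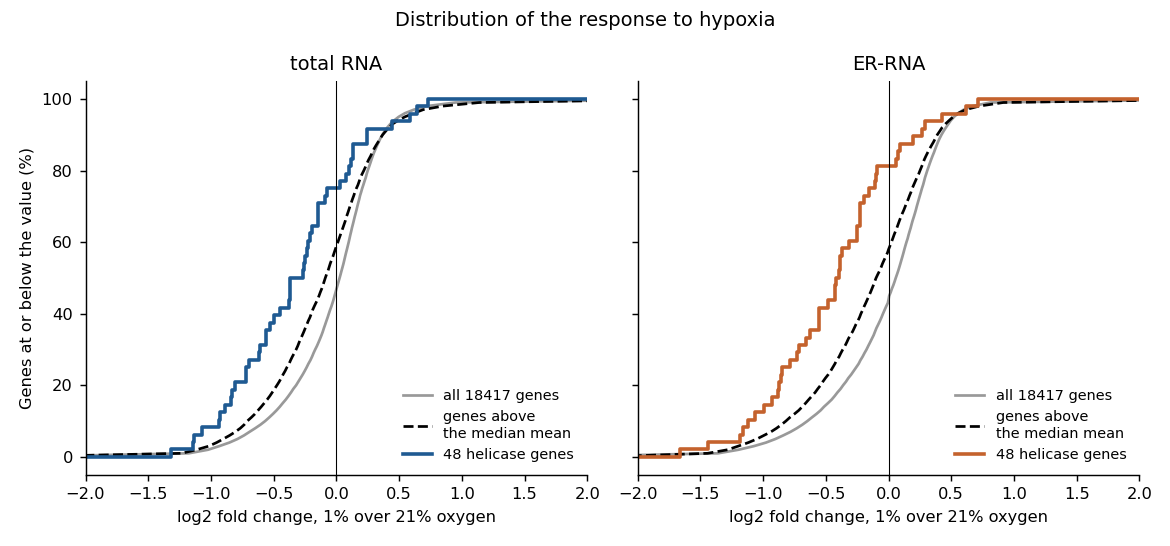
Cumulative share (%) of genes against the log2 fold change, 1% over 21% oxygen, in total RNA (left) and ER-RNA (right), for the 48 helicase genes (coloured steps), all 18417 genes (grey) and the 9208 genes above the median mean (dashed). The helicase curve lies to the left of both others over most of the range below 0 and reaches 36 and 39 of the 48 genes at 0.

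**Figure D2:**
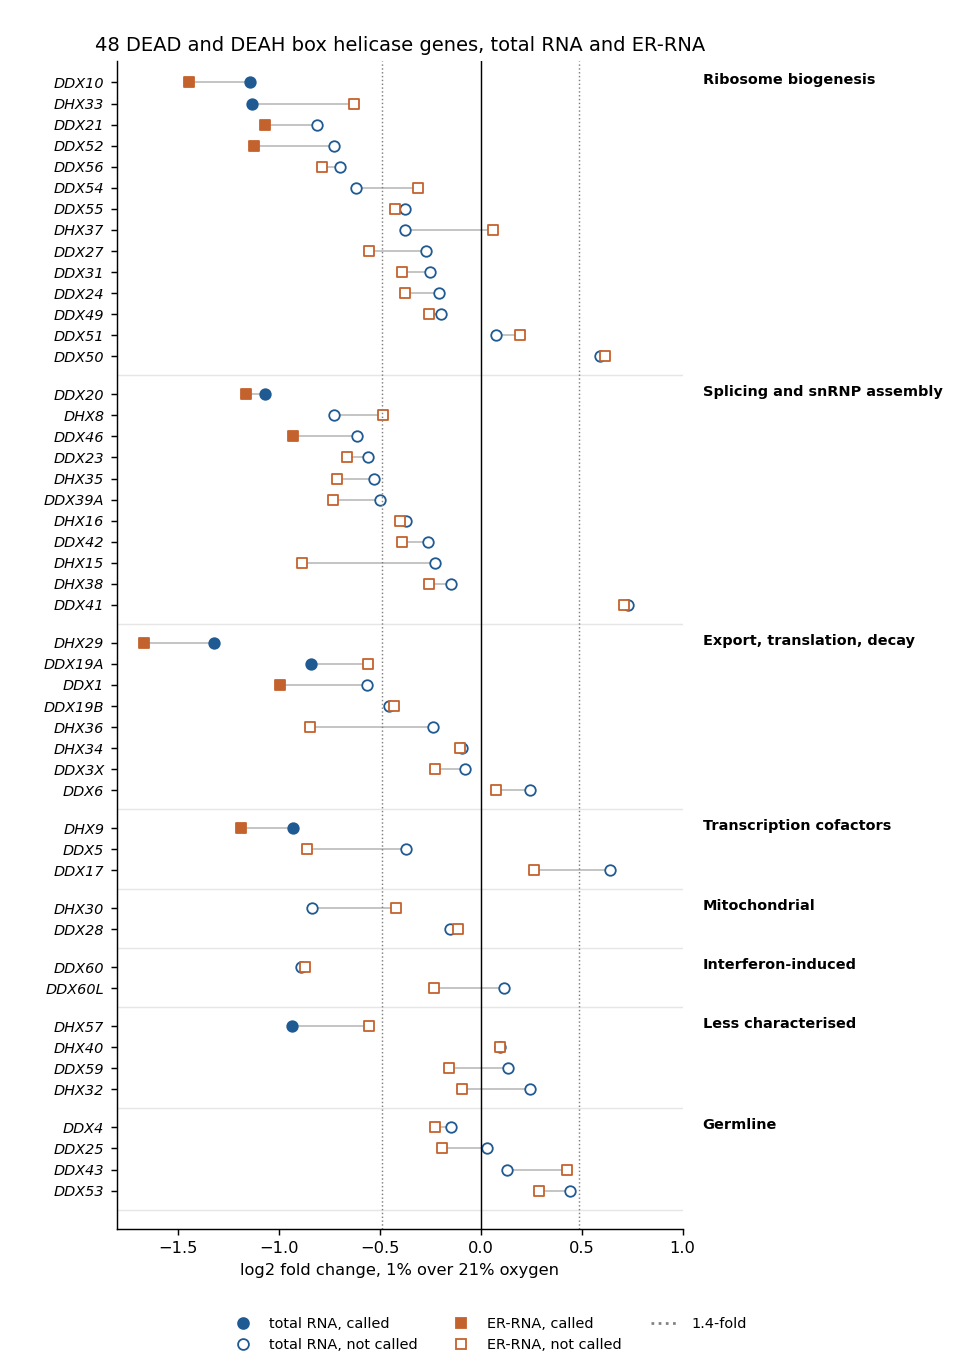
Log2 fold change, 1% over 21% oxygen, of each helicase gene with circles for total RNA and squares for ER-RNA, grouped by role. Filled symbols are called changes, dotted lines mark 1.4-fold, and each symbol rests on 1 array per condition. All filled symbols lie below 0, while DDX41 and DDX50 lie furthest to the right among the ribosome biogenesis and splicing genes.

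DHX29 showed the largest fall of the family. It binds the small ribosomal subunit and helps it to scan mRNAs whose leaders are folded. In total RNA its log2 value was 9.09 in control and 7.78 in hypoxia, and in the ER fraction it was 8.24 and 6.58. The hypoxia array was thus the lower one in each preparation. DHX29 fell to 0.401 (z-score -5.43) of its control level in total RNA and to 0.315 (z-score -6.54) in the ER fraction. These falls were called under every alternative setting except for total RNA, where the call was lost when 1 array had to lie above its 75% quantile. Settings that choose or average probe sets could not alter the values, since DHX29 has 1 probe set.

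Among the 7 other genes of export, translation and decay, DDX19A and DDX1 fell in 1 preparation each. DDX19A, which releases mRNPs from export factors at the nuclear pore, had log2 values of 9.27 and 8.44 in total RNA and of 8.67 and 8.11 in the ER fraction. In total RNA it fell to 0.560, compared with 0.679 and no call in the ER fraction. A second probe set of DDX19A also fell in total RNA, with a log2 fold change of -0.71, and was at -0.25 in the ER fraction. DDX19B, its neighbour on the chromosome and close relative, was at 0.732 and 0.744 and was not called. Probe sets of such similar genes may share signal, so their values are not independent. DDX1, a subunit of the tRNA ligase complex that also serves the unfolded protein response, went from 9.91 to 8.91 in the ER fraction and from 10.46 to 9.90 in total RNA. It fell to 0.502 of control in the ER fraction with a z-score of -3.06, close to the threshold, and was at 0.678 in total RNA.

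The remaining genes of this group spanned a wide range without a call. DHX36, which resolves G-quadruplexes in RNA and DNA, was at 0.850 in total RNA and at 0.556 in the ER fraction, where its z-score was -2.78. DDX3X, needed for translation of mRNAs with structured leaders, was at 0.949 and 0.854, and DHX34, a nonsense-mediated decay factor, at 0.939 and 0.932. These 2 genes thus differed little between conditions in either preparation. DDX6, a translational repressor and core component of processing bodies, was the only gene of the group that was higher in hypoxia in both preparations, with log2 values of 10.04 and 10.28 in total RNA and of 8.71 and 8.79 in the ER fraction. Its folds of 1.18 and 1.05 were below the threshold.

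**Figure D3:**
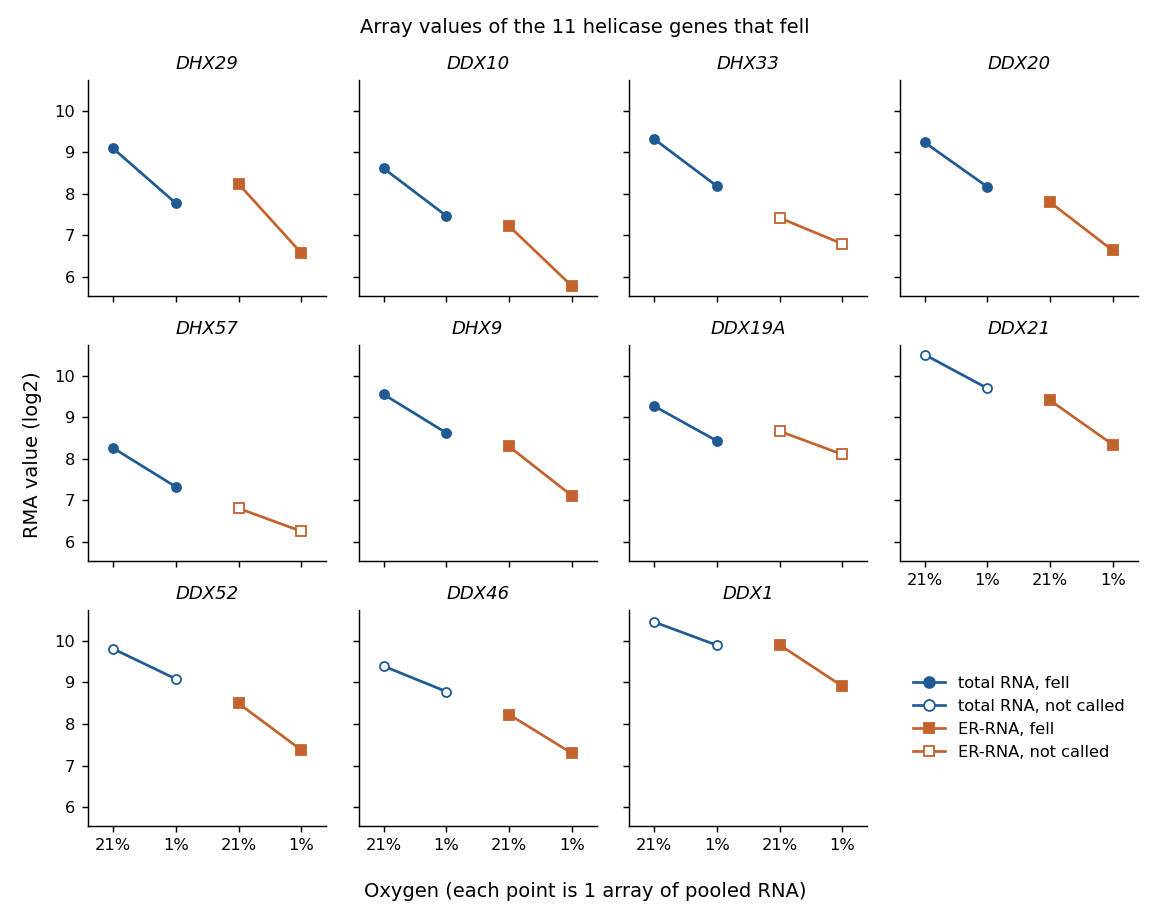
Normalized values (log2) of the 11 helicase genes that fell in at least 1 preparation, at 21% and 1% oxygen, with circles for total RNA and squares for ER-RNA, with 1 array of pooled RNA per point. Filled symbols mark the preparation in which the gene fell. In every panel the value at 1% oxygen is the lower one, also where the change was not called.

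Ribosome biogenesis engages the largest set of these enzymes, which remodel pre-rRNA and detach snoRNAs in the nucleolus. Of 14 such genes, 2 fell in total RNA and 3 in the ER fraction, and 12 and 11 were lower in hypoxia. Beside the 4.66% and 5.32% of all genes that fell, and the 7.67% and 8.68% at higher signal, role groups of this size rest on very few calls. Their median log2 fold change was -0.37 and -0.41. DDX10, which acts in early processing of pre-rRNA, had log2 values of 8.61 in control and 7.47 in hypoxia in total RNA, and of 7.23 and 5.78 in the ER fraction. It fell to 0.453 and 0.368 of control. Both hypoxia values lie below the medians of their arrays, so DDX10 failed a filter that asked both arrays of a preparation to lie above the 50% quantile. DHX33, linked to transcription of ribosomal DNA, went from 9.32 to 8.19 in total RNA and from 7.42 to 6.80 in the ER fraction. It fell in total RNA, to 0.456, and was at 0.648 in the ER fraction, where the z-score was -2.62.

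DDX21 and DDX52 fell in the ER fraction. DDX21, a nucleolar protein that couples rRNA transcription to processing, had values of 9.41 and 8.35 in the ER fraction and of 10.51 and 9.70 in total RNA. It fell to 0.477 in the ER fraction and was at 0.570 in total RNA (z-score -2.88). DDX52, which serves assembly of the small subunit, had 8.50 and 7.37 in the ER fraction and 9.81 and 9.09 in total RNA. It fell to 0.459 in the ER fraction and was at 0.605 in total RNA. For both genes the value in total RNA passed the fold threshold and missed the z-score, so the preparations are not shown to differ. DDX56, a helicase of large subunit assembly, was at 0.617 and 0.579 and was called in neither preparation. DDX54, DDX55, DDX27, DDX31, DDX24 and DDX49 lay between -0.61 and -0.19 in total RNA and between -0.55 and -0.25 in the ER fraction on the log2 scale. DHX37 was at 0.773 in total RNA and 1.04 in the ER fraction, and DDX51 at 1.05 and 1.14.

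DDX50 departed from the other nucleolar helicases. It is the closest relative of DDX21 and lies next to it on chromosome 10, with 0 protein-coding genes between them. Its log2 value was 8.65 in control and 9.24 in hypoxia in total RNA, and 8.69 and 9.31 in the ER fraction, so that hypoxia was the higher array each time. The folds were 1.51 and 1.53, with z-scores of 2.21 and 1.91, and DDX50 was not called. The log2 fold change of DDX21 minus that of DDX50 was -1.40 for total RNA and -1.68 for the ER fraction. The promoters of both genes, taken from RefSeq on GRCh38.p14 and strand +, hold the letters CCGGAA upstream of the start site, the core bound by ETS factors. The stretches are shown because the values of these neighbours lay on opposite sides of 0, and capitals mark the core.
DDX21, chr10:68956098-68956127: ttcctgcttcccCCGGAAgtgccttgctac
DDX50, chr10:68901255-68901284: gcggtgcgtgtcCCGGAAgtgacgcatggc
Its first base lies at position -60 from a start site of DDX21 and at -48 from that of DDX50. It is followed by GTG in both.

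Across the family, TTCCGG or its reverse CCGGAA occurred in 31 of 59 promoter windows (52.5%) that belong to 45 of the 48 genes, against 17.2% of all 35116 windows of the same 300 bases. DHX33, DDX49 and DDX52 have no window there. For the core of the hypoxia response element only ACGTG, or its reverse CACGT, was searched. It occurred in 18 of the 59 windows (30.5%), against 21.4% of all windows. Every E-box CACGTG contains it, so windows with an E-box are counted there too. The E-box was held by 10 of the 59 windows (16.9%), against 7.26% of all windows. The difference in ACGTG is thus not separate from that in the E-box, and windows without an E-box were not counted apart. A CCAAT box (or ATTGG) was held by 49.2% against 34.6%, and the TATA motif TATAAA (or TTTATA) by 5.08% against 11.5%. These were 5 of 13 motifs searched on both strands, chosen after their counts were seen. Median GC content was 60.7% in the helicase windows and 58.7% in all, several windows of 1 gene can overlap, and a match is no evidence of binding. The windows of all genes belong to 27305 genes taken without regard to expression. The shares therefore do not compare helicase genes with genes of like signal. Of the 9 genes that fell and have a window, DDX19A, DDX21 and DDX46 held ACGTG or CACGT. In DDX21 the next base completes the E-box CACGTG, which no other of these 9 genes held. The 5 letters are shown in capitals for DDX21, at another of its start sites, and for DDX46.
DDX21, chr10:68956604-68956632: ggccgggtgtccCACGTggtccccggcga
DDX46, chr5:134758761-134758778: tgccggcgccagCACGTc
Both genes fell in the ER fraction, and a link to these letters was not tested.

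Splicing helicases drive the rearrangements of the spliceosome, and 10 of 11 genes of splicing and snRNP assembly were lower in hypoxia in each preparation. The group had a median of -0.50 (log2 fold change) for total RNA and of -0.66 for the ER fraction, while 1 and 2 genes fell, in total RNA a share (9.09%) near the 7.67% of genes of higher signal. DDX20, also called Gemin3, is a component of the SMN complex that loads Sm proteins on spliceosomal RNAs. Its log2 values were 9.24 and 8.17 in total RNA and 7.80 and 6.64 in the ER fraction. DDX20 fell in both, to 0.476 and 0.447 of control. DDX46, which helps U2 snRNP to engage the branch site, went from 8.23 to 7.30 in the ER fraction and from 9.39 to 8.78 in total RNA. It fell to 0.525 in the ER fraction and was at 0.654 in total RNA (z-score -2.26).

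The DEAH box helicases that act in order on the assembled spliceosome were lower without a call. DHX16, which starts catalytic activation, was at 0.775 in total RNA and 0.759 in the ER fraction. DHX38, which acts between the catalytic steps, was at 0.904 and 0.838. DHX8, which releases the spliced mRNA, was at 0.605 and 0.715. DHX15, which takes the spent spliceosome apart, was at 0.855 in total RNA and at 0.542 in the ER fraction, with a z-score of -2.85 in the latter. All 4 were lower in hypoxia in both preparations, by differing amounts. DDX23, DHX35, DDX39A and DDX42 lay between 0.602 and 0.836 of control over both preparations.

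DDX41 was the exception in this group. It joins the catalytic spliceosome and has also been described as a sensor of cytosolic DNA. Its log2 value was 10.48 in control and 11.21 in hypoxia in total RNA, and 9.73 and 10.44 in the ER fraction. Both hypoxia arrays were the higher ones, and its fold changes of 1.66 and 1.64 were the highest of the 48 genes. The z-scores were 2.67 and 2.22, so it was not called. After quantile normalization or within-pair loess DDX41 was called higher in total RNA, with log2 fold changes of 0.94 and 0.83.

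DDX5 and DDX17, close relatives that serve as transcription cofactors and in microRNA processing, lay on opposite sides of 0. DDX5 had log2 values of 10.93 and 10.56 in total RNA and of 10.60 and 9.75 in the ER fraction. It was at 0.774 of control in total RNA and at 0.552 in the ER fraction. DDX17 had 10.95 and 11.59 in total RNA and 9.13 and 9.40 in the ER fraction, with folds of 1.56 and 1.20. DDX5 was thus lower and DDX17 higher in hypoxia in both preparations, and neither was called. In log2 fold change DDX5 minus DDX17 was -1.01 in total RNA and -1.12 in the ER fraction. DHX9, or RNA helicase A, which resolves RNA duplexes and R-loops in the nucleus, had 9.55 and 8.63 in total RNA and 8.30 and 7.12 in the ER fraction. It fell to 0.526 and 0.440 of control.

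Genes of other roles moved less uniformly. DHX30, a helicase of mitochondrial ribosome assembly, went from 10.53 to 9.69 in total RNA and from 8.30 to 7.88 in the ER fraction. It was at 0.561 and 0.749 of control, and its z-score of -2.96 in total RNA just missed the threshold. DDX28, also of mitochondrial ribosomes, was not expressed in either preparation by the filter. DHX57, whose function is little known, had 8.26 and 7.33 in total RNA and 6.81 and 6.26 in the ER fraction. Its fall in total RNA was to 0.523, against 0.682 without a call in the ER fraction, and its hypoxia values lie below the medians of both arrays. DHX40 had folds of 1.07 and 1.07, DHX32 of 1.19 and 0.937, and DDX59 of 1.10 and 0.897.

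The interferon-induced gene DDX60 had log2 values of 7.62 in control and 6.74 in hypoxia in total RNA. It was at 0.541 of control with a z-score of -2.47, and at 0.547 in the ER fraction, where it was not expressed. DDX60L, its neighbour on the chromosome, was expressed in neither preparation. The germline helicases DDX4, DDX25, DDX43 and DDX53 were also expressed in neither, with values of 3.65 to 6.10 over the 4 arrays. For these genes fold changes describe signals below the array medians.

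DDX39B, an export and splicing factor whose probe sets also name a read-through transcript, was read by 3 probe sets. Their log2 fold changes ranged from -0.36 to -0.34 in total RNA and from -0.73 to -0.71 in the ER fraction. DDX47, measured together with APOLD1, was at -0.16 and -0.66. Probe sets that name DDX11 with its relatives lay between 0.011 and 0.030 in total RNA and between -0.17 and -0.11 in the ER fraction. None of these shared probe sets was called.

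RNA helicases of other names showed a similar picture. Of 12 such genes, 10 were lower in hypoxia in each preparation, with medians of -0.37 in total RNA and -0.45 in the ER fraction. MTREX, the helicase of the nuclear exosome, fell in the ER fraction to 0.389 of control, and 0 fell in total RNA, where HELZ was highest (1.22) and SUPV3L1 lowest (0.588). The eIF4A paralogue EIF4A2 had log2 fold changes of 0.043 and -0.23, and EIF4A3, of the exon junction complex, of -0.34 and -0.49.

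Partner genes were set beside the helicases they serve. Each of these short lists holds 0, 1 or 2 falls in a preparation, beside 4.66% and 5.32% of all genes. Of 6 genes listed as partners of DDX1, in its tRNA ligase complex or related to it, all were lower in both preparations. RTCB, the ligase itself, fell in total RNA, to 0.521, and stood at 0.542 in the ER fraction, and FAM98A fell to 0.478 and 0.328. Its relative FAM98B was at 0.680 and 0.691 without a call. Of 7 partners of DDX20 in the SMN complex, GEMIN5, which recognises the RNA to be loaded, fell to 0.458 and 0.567, and GEMIN6 fell in the ER fraction to 0.566. Among 10 TREX genes, partners of DDX39B in export, ALYREF fell to 0.518 and 0.425. The 11 partners of DDX6 in decapping and repression had medians of 0.015 and -0.0030, and 0 were called. DCP2, the decapping enzyme, was highest in total RNA (1.59) and PATL1 in the ER fraction (1.19), while EDC3 was lowest in both (0.784 and 0.632). Some of the 15 listed G-patch proteins activate DEAH box helicases. Among the 15, PINX1 fell in the ER fraction to 0.422 and was lowest in total RNA without a call (0.540). RBM5 was highest in total RNA (1.26), and the medians of the list were -0.22 and -0.25. Of 10 cofactors of eIF4A and DDX19 proteins, MAGOH fell in the ER fraction to 0.515, and PDCD4 (1.09) and EIF4G1 (0.743) were highest and lowest in total RNA.

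Other factors of the same processes were also lower in hypoxia, with lower medians than the helicases in ribosome biogenesis and higher medians in splicing. Of 36 ribosome biogenesis factors that are no DEAD or DEAH box genes, 13 fell in total RNA and 17 in the ER fraction, and their medians were -0.72 and -0.86, compared with -0.37 and -0.41 for the nucleolar helicases. UTP15, of the small subunit processome, fell furthest in both (0.227 and 0.174), while FBL was highest in total RNA (1.03) and NOB1 in the ER fraction (1.08). Of 31 further spliceosome genes, 6 fell in total RNA and 8 in the ER fraction, with medians of -0.41 and -0.43, compared with -0.50 and -0.66 for the splicing helicases. SNRNP40 fell furthest in total RNA (0.478) and CDC40 in the ER fraction (0.359), while SF3B1 (1.09) and SF3A2 (1.17) were highest. These lists were not tested against each other.

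The responses in the 2 preparations ran largely in parallel. Across the 48 genes the log2 fold changes correlated with Pearson's r of 0.858, against 0.733 across all genes. This is a description of genes that share the same 4 arrays. In 35 of the 48 genes the log2 fold change was lower in the ER fraction than in total RNA, with a median difference of -0.12 against 0.013 for all genes. The same held for 8854 of all 18417 genes. Among genes expressed in both preparations it held for 30 of 40 helicase genes and for 5587 of 10851 genes. The gap was widest for DHX15 (-0.66) and DHX36 (-0.61), followed by DDX5 (-0.49) and DDX1 (-0.43). It ran the other way for DHX33 (0.51), DHX37 (0.43) and DHX30 (0.42). Whether these gaps exceed the spread between experiments cannot be assessed.

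Signals in the ER fraction were also set against total RNA within a condition. Since the arrays of the preparations do not share a scale, each difference is given relative to the median of all genes. Helicase genes had a median of -0.14 at 21% oxygen and of -0.29 at 1% oxygen on the log2 scale. By comparison, 11 mRNAs that encode ER-targeted proteins had -1.05 and -0.79, and 12 that encode abundant cytosolic proteins had 1.06 and 0.98. ER-targeted mRNAs were thus relatively lower in the ER fraction, so a high value is not read as location at the ER. In hypoxia the ER chaperone genes HSPA5 and PDIA4 fell in total RNA, to 0.510 and 0.485, and in the ER fraction HSPA5 was lowest (0.523) and P4HB highest (1.74) of the ER-targeted list without a call. In the cytosolic list TPI1 (1.42) and TUBA1B (0.777) were highest and lowest in total RNA, and ALDOA (1.32) and YWHAZ (0.790) in the ER fraction. Among helicase genes DDX50 (1.16), DHX32 (1.14) and DHX40 (1.12) were highest at 21% oxygen and DHX30 (-1.12) was lowest. DDX50 kept this difference at 1% oxygen (1.16), whereas DDX5 went from 0.79 to 0.28 and DHX15 from 0.12 to -0.56.

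**Figure D4:**
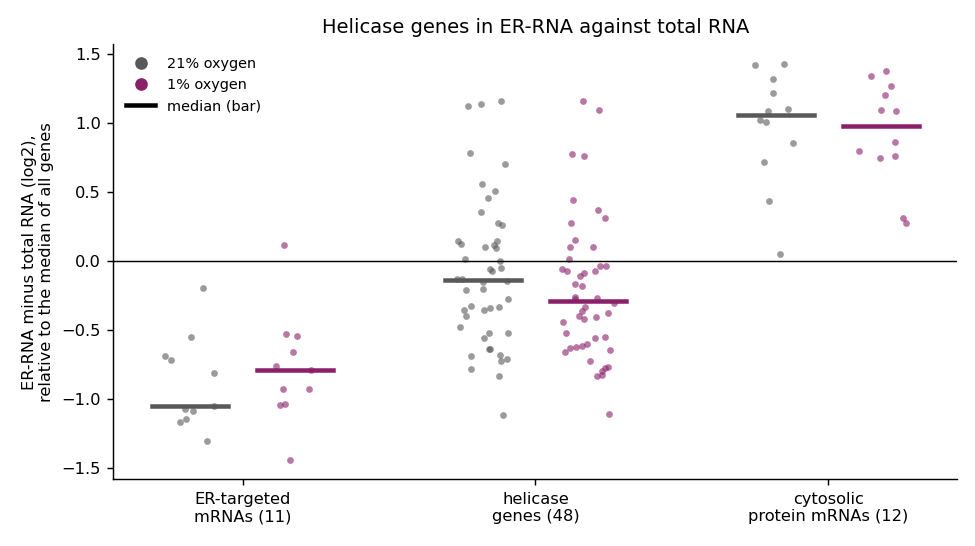
ER-RNA minus total RNA (log2), relative to the median difference of all genes, at 21% oxygen (grey) and 1% oxygen (purple), for 11 ER-targeted mRNAs, the 48 helicase genes and 12 mRNAs of cytosolic proteins, with a point per gene and a bar at the median. The helicase medians of -0.14 and -0.29 lie between those of the other lists.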

How the data were processed

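Total RNA and ER-RNA were measured on Affymetrix arrays (Human Gene 1.0 ST), 1 array per preparation and condition, each with a pool of 5 experiments. The deposited log2 values had been normalized with RMA by the authors, and Partek 6.4 is listed beside RMA in the submitters' processing notes. The sources used here do not say if the 4 arrays went through a single RMA run. Precision is limited by the number of arrays. Gene names came from the platform annotation, updated by gene identifier through RefSeq for 19429 of 19460 probe sets that name 1 gene.

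Hypoxia was compared with control within each preparation after the thresholds in the study's methods, with R 4.3.3 and limma 3.58.1. Probe sets were kept where at least 1 array lay above its 50% quantile, leaving 17537 for total RNA and 17581 for ER-RNA. The SD for the z-score was read from a loess fit (span 0.75, degree 2) of the SD over the 2 arrays on their mean. The study's methods describe this model as made separately for treatment and for control. With 1 array per group no SD exists within a group, so it was fitted here over each control and hypoxia pair, and the z-scores may depart from the study's. A z-score of 3 then means a difference of 2.12 times the fitted mean absolute difference at that level, and the rule gives no error rate.

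The helicase genes, role groups and partner lists were chosen with earlier results of these data known. Genes named in the text were all those called, the expressed genes with the highest and lowest log2 fold change of each role group and preparation, and the called or extreme genes of each other list. Further members were named to account for the family. Of the probe sets, 12083 are unnamed. They entered the SD fit and not the gene counts. Promoter windows run from 250 bases before to 50 after the RefSeq start site and were searched with Python 3.11.15.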

Additional observations from a re-analysis of the deposited data

Results flagged for a closer look

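For 5 helicase genes the log2 fold change had opposite signs in the 2 preparations, and with 1 array per condition the difference between them was not tested. DHX37, a ribosome biogenesis helicase, had -0.37 in total RNA and 0.060 in the ER fraction. DHX32 had 0.25 in total RNA and -0.094 in the ER fraction, and DDX59 had 0.13 and -0.16. DDX60L had 0.12 and -0.23, and DDX25 had 0.030 and -0.19, both with signals below the expression filter in each preparation. None of these changes was called. Opposite signs were found for 4425 of all 18417 genes.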

How the results depend on the processing

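Each array was hybridised once, so no array could be left out. No paired analysis was possible because each group holds 1 array. Across 13 alternative settings the medians and the shares of helicase genes lower in hypoxia kept their direction wherever they were recomputed. The medians ranged from -0.47 to -0.27 in total RNA and from -0.52 to -0.34 in the ER fraction. The counts depended on the calling rule. By fold change alone 19 genes were lower and 3 higher in total RNA, and 19 and 2 in the ER fraction. With an SD from the scaled MAD 3 fell in total RNA and 3 in the ER fraction, where DHX29 and DDX10 remained in both. Under a filter at the 75% quantile, 1 fell in total RNA (DHX9) and 5 in the ER fraction. With a fold threshold of 2, 4 fell in total RNA and 6 in the ER fraction. After quantile normalization and after within-pair loess 1 gene, DDX41, rose in total RNA. DDX19A lost its call in total RNA after either of these, and DDX1 lost its call in the ER fraction, as it did with the SD fitted on single-gene probe sets, with the scaled MAD and with a fold threshold of 2. DHX35 gained a call in the ER fraction under centring, quantile normalization, within-pair loess and no filter, and in total RNA when both arrays had to exceed the 50% quantile. DHX30 gained one in total RNA under centring and with single-gene probe sets. DHX33 gained one in the ER fraction under centring, and DDX60 in both preparations without a filter. Among 494 values of single genes over all settings, 33 lost and 21 gained a call. These values cover only the called genes and the expressed extremes of each role group. Gains of DHX35 and of the other members named in the text are not among the 21. Only the 7 falls in total RNA and the 8 in the ER fraction could lose a call in a setting. The 494 values are therefore not the base for the losses. DDX21 and DDX46 lost their calls in the ER fraction after quantile normalization, and DDX10 (both preparations) and DHX57 (total RNA) when both arrays had to exceed the 50% quantile. The cause was not tested. Median centring moved the median of all genes by under 0.1. Counting the 3 genes that share probe sets, a setting chosen after seeing the data, could not change the 7 and 8 falls, since none of their probe sets was called. Among the helicase genes, settings on the choice of probe set bear only on DDX19A and DHX16, which have more than 1.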
